A study of Mus musculus with 54 samples.

Results

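RNA abundance was followed for 9 mouse genes across all 15 conditions of a study on macrophage polarization. They were *Tgfb1*, *Tgfb2*, *Tgfb3*, *Tgfbr1*, *Tgfbr2*, *Tgfbi*, *Smad3* and *Smad7* of transforming growth factor beta (TGF-beta) signaling and its targets, and the growth factor gene *Igf1*. The genes were chosen by their symbols, and they are 9 of 39179 genes in the count tables. All 9 passed the filter on low counts, which left 16110 genes in the first and 14172 genes in the second of the experiments described here. The cells were macrophages from the peritoneum of adult C57BL/6 mice that had been elicited with thioglycolate, an irritant that draws monocytes into the peritoneal cavity.

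In the polarization experiment, macrophages of 3 mice were left unpolarized (M0), treated with 100 ng/ml lipopolysaccharide and 50 ng/ml interferon gamma (M1-like) or treated with 10 ng/ml interleukin 4 (M2-like) for 24 h, with 2 sequenced technical replicates per sample, whose reads were added up here (n = 3 mice). In the reprogramming experiment, 12 conditions with 3 replicates each were sequenced. These were the 3 kinds of macrophages without transfection, the same 3 kinds with transfection reagent alone (mock), and M2-like macrophages transfected with a negative control siRNA pool, with siRNA pools against the transcription factors *E2f1*, *Myc*, *Pparg* or *Stat6*, or with these 4 pools combined. M1-like and M2-like cells had been polarized before transfection, and mock and siRNA-transfected cells were cultured without interleukin 4 and harvested 48 h after it. The study's methods speak of biological replicates and the labels of this experiment name no mice, so p-values measure the spread between these samples. Time, read length and sequencing centre differ between the experiments and cannot be told apart, so levels of the experiments stand side by side without a test.

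TGF-beta ligands are secreted in a latent form and, once released, bind the type II receptor TGFBR2, which recruits and phosphorylates the type I receptor TGFBR1. The active receptor phosphorylates SMAD2 and SMAD3, which enter the nucleus with SMAD4, and SMAD7 is an inhibitory SMAD that is induced by the pathway and acts on the receptor. TGFBI is a secreted matrix protein named for its induction by TGF-beta, and insulin-like growth factor 1 (IGF1) is a growth factor that macrophages secrete in tissue repair and that is used as a marker of alternative activation.

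Libraries held between 19714994 and 29880494 counted reads in the polarization and between 13421854 and 19704195 in the reprogramming experiment. Levels are given in CPM, the reads of a gene scaled to a common library size after TMM normalization. The 7 macrophage markers were detected in every condition. In the polarization experiment their sum lay between 10300 and 11300 CPM in M1-like and between 12700 and 17400 CPM in the other conditions. In the reprogramming experiment it lay between 6210 and 7790 CPM in M1-like and between 11600 and 18300 CPM in all other conditions. Fibroblast markers (*Col1a1*, *Col1a2*, *Col3a1*, *Dcn*, *Lum*, *Pdgfra*) were not absent. Their sum lay between 9.40 and 34.3 CPM in the polarization experiment and, in the reprogramming experiment, between 22.2 and 96.1 CPM in M1-like and between 113 and 449 CPM in all other conditions. The M2-like sample of the first mouse stood apart from those of the other mice, with a chi-square statistic of up to 52.4 per gene between libraries of different mice, whereas technical replicates differed by 1.07 to 1.10. Without this sample, each of the 9 genes stayed on its side of the threshold in the 24 h comparisons of M2-like cells.

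Per length, *Tgfb1*, the receptors and *Igf1* were the abundant genes. These are levels in bulk RNA, in which fewer cells of a type and less RNA per cell cannot be told apart. In M0 at 24 h, the mean level divided by the total exon length was 42.6 CPM per kb for *Tgfbr1*, 35.9 for *Tgfb1*, 32.5 for *Igf1* and 20.6 for *Tgfbr2*. It was 7.15 CPM per kb for *Tgfbi*, 1.84 for *Smad7*, 1.79 for *Tgfb2*, 1.23 for *Smad3* and 0.183 for *Tgfb3*. *Tgfb1* had the highest level of the 3 ligands, and *Tgfb3* rested on only 8 to 36 reads per sample in this experiment. The plot of levels by library shows the 9 genes in all conditions.

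**Figure D1:**
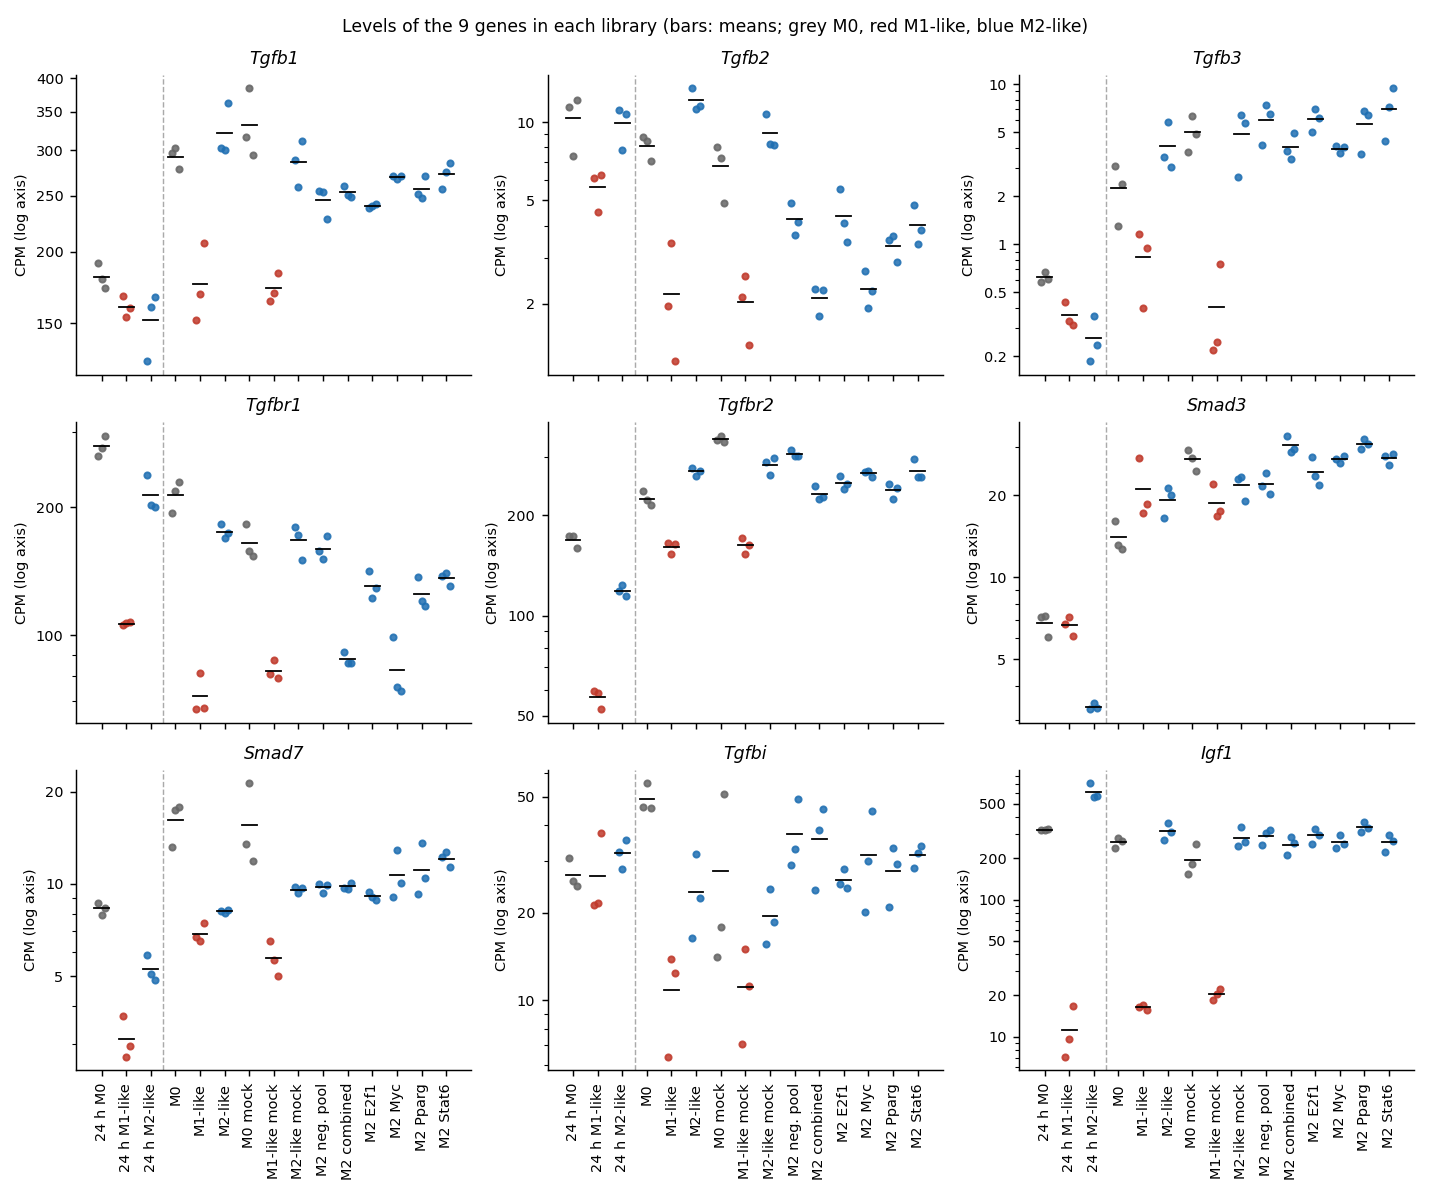
Level of each gene in every sample (CPM, log axis) over the 15 conditions, with the polarization experiment left and the reprogramming experiment right of the dashed line. Points are 3 mice or replicates and black bars their means; the M1-like samples (red) lie lowest for *Igf1*, *Tgfbr1*, *Tgfbr2* and *Smad7* in each experiment, except that the *Tgfbr1* level of M2-like cells with the *Myc* and combined pools reaches down to them.

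The first question was how the genes differed between polarized macrophages after 24 h. Of the 9 genes, 6 differed between M1-like and M2-like macrophages, 1 higher and 5 lower in M1-like cells, at an adjusted p under 0.05 in edgeR's quasi-likelihood test, which is used throughout with Benjamini-Hochberg adjustment over all genes tested. Of all genes, 72.6% were called in this comparison, 34.6% higher and 38.1% lower, so the count of 6 is near the background. Of the 9 genes, *Igf1* differed most, *Tgfb2*, both receptors and *Smad7* were lower in M1-like cells, and *Smad3* was higher.

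Among the ligands, *Tgfb1* (chromosome 7, 25687002 to 25705077, GRCm38), a ligand with many immune functions, was measured at 191, 179 and 173 CPM in M0, at 168, 154 and 160 CPM in M1-like samples and at 129, 160 and 167 CPM in M2-like samples of the 3 mice. The polarized conditions overlapped, and the difference of 0.08 ± 0.09 (log2 fold change ± SE, M1-like minus M2-like) did not pass the test (adjusted p = 0.449, edgeR). *Tgfb2* (chromosome 1, 186622792 to 186705989) was lower in M1-like cells, at 6.08, 4.52 and 6.28 CPM against 11.2, 7.85 and 10.7 CPM in M2-like and 11.5, 7.44 and 12.1 CPM in M0 cells. No M1-like sample reached the lowest M2-like sample, and the log2 fold change was -0.81 ± 0.20 (adjusted p = 0.00293, edgeR). Its exons share 124 bases with the antisense gene *Gm29491*, and since the strand setting of the counting is not given in the sources used here, reads there cannot be assigned to either gene. *Tgfb3* (chromosome 12, 86056745 to 86079041) was below 1 CPM in every sample, was lower in M2-like than in M0 cells (-1.23 ± 0.26, adjusted p = 0.00425, edgeR), and also overlaps genes on the opposite strand, *Gm37804* by 163 and *Gm48008* by 257 exon bases.

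Both receptors were lower in M1-like macrophages. *Tgfbr1* (chromosome 4, 47353222 to 47414931), the signaling type I receptor, was measured at 105, 107 and 107 CPM in M1-like samples, at 238, 203 and 200 CPM in M2-like and at 264, 276 and 295 CPM in M0 cells. *Tgfbr2* (chromosome 9, 116084293 to 116175360), the ligand-binding type II receptor, was measured at 59.4, 58.7 and 52.5 CPM in M1-like, at 118, 124 and 115 CPM in M2-like and at 173, 173 and 159 CPM in M0 cells. For both genes the 3 conditions did not overlap, in the order M0, M2-like and M1-like. M1-like minus M2-like, the log2 fold change was -1.0 ± 0.07 for *Tgfbr1* (adjusted p = 1.31e-07, edgeR) and -1.07 ± 0.07 for *Tgfbr2* (adjusted p = 2.42e-08, edgeR), which is a 2.01-fold and a 2.09-fold lower level.

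The SMAD genes moved in opposite directions in this comparison. *Smad3* (chromosome 9, 63646767 to 63757994), the signal transducer, was at 6.76, 7.15 and 6.10 CPM in M1-like and at 7.16, 7.20 and 6.03 CPM in M0 cells, which overlapped, but only at 3.29, 3.46 and 3.32 CPM in M2-like cells. It was thus at a 1.98-fold higher level in M1-like cells (log2 fold change 0.99 ± 0.11, adjusted p = 5.19e-06, edgeR). *Smad7* (chromosome 18, 75367529 to 75395935), the inhibitor, was at 3.70, 2.73 and 2.95 CPM in M1-like, at 5.86, 5.09 and 4.86 CPM in M2-like and at 8.66, 7.91 and 8.36 CPM in M0 cells, without overlap, and its log2 fold change was -0.75 ± 0.13 between M1-like and M2-like cells (adjusted p = 0.000202, edgeR).

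Of the remaining genes, *Igf1* (chromosome 10, 87858265 to 87937042) showed the widest range of the 9 genes. It was measured at 705, 564 and 573 CPM in M2-like, at 320, 321 and 326 CPM in M0 and at 7.16, 9.68 and 16.9 CPM in M1-like cells. Every M2-like sample was thus above every M0 sample and every M0 sample far above the M1-like samples. M1-like cells held 54.2-fold less of it than M2-like cells (log2 fold change -5.76 ± 0.26, adjusted p = 1.20e-09, edgeR), and 1.91-fold higher in M2-like than in M0 cells (0.93 ± 0.21, adjusted p = 0.00667, edgeR). *Tgfbi* (chromosome 13, 56609523 to 56639562) did not pass the test, with 21.3, 21.6 and 37.4 CPM in M1-like cells against 32.3, 28.2 and 35.4 CPM in M2-like cells (log2 fold change -0.25 ± 0.19, adjusted p = 0.248, edgeR). Here the third mouse decided: without its M1-like sample the log2 fold change of *Tgfbi* was -0.57 (adjusted p = 0.00116, edgeR).

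Against M0, 6 of the 9 genes were called in M1-like cells, all 6 lower, with 72.9% of all genes called, and 6 in M2-like cells, 1 higher and 5 lower, with 27.9% of all genes called, 13.5% higher and 14.4% lower. The M1-like cells had lower *Igf1* (28.4-fold), *Tgfbr2* (2.97-fold), *Smad7* (2.66-fold), *Tgfbr1* (2.61-fold), *Tgfb2* (1.83-fold) and *Tgfb3* (1.74-fold) than M0. The call of *Tgfb3* was lost without the M1-like sample of the third mouse (log2 fold change -0.69, adjusted p = 0.0600, edgeR) and with DESeq2 (adjusted p = 0.0779). Without the same sample, *Tgfbi* was called instead (-0.33, adjusted p = 0.0266, edgeR). The 5 genes lower in M2-like cells were *Tgfb3*, *Smad3* (2.02-fold), *Smad7* (1.58-fold), *Tgfbr2* (1.42-fold) and *Tgfbr1* (1.30-fold). *Tgfb1* missed the threshold there (log2 fold change -0.25 ± 0.09, adjusted p = 0.0551, edgeR) and passed it without the M2-like sample of the third mouse (-0.32, adjusted p = 0.0242). With all samples it passed with DESeq2 (-0.25, adjusted p = 0.0361) and without a filter on low counts (-0.24, adjusted p = 0.0470, edgeR).

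The same comparison was made in the reprogramming experiment, in macrophages with and without transfection reagent. M1-like minus M2-like, 7 of the 9 genes were called in untransfected cells, where 61.5% of all genes were called, and 7 in mock cells, where 60.7% of all genes were called, 30.9% higher and 29.8% lower. All 7 were lower in M1-like cells in both settings. *Tgfb1*, *Tgfb2*, *Tgfb3*, *Tgfbr1*, *Tgfbr2* and *Igf1* were called in both, *Tgfbi* in untransfected and *Smad7* in mock cells. The comparison differed between mock and untransfected cells for none of the 9 genes in the interaction test of edgeR (1.13% of all genes called; 2 of the 9 genes at an unadjusted p under 0.05, and 0 with DESeq2).

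*Igf1* again differed most of the 9 genes between M1-like and M2-like cells. It was at 16.4, 17.0 and 15.8 CPM in untransfected and 18.5, 20.4 and 22.4 CPM in mock M1-like cells. The M2-like cells had 271, 364 and 310 CPM without transfection and 247, 340 and 265 CPM in the mock condition, and no M1-like library came near them. The level was 19.2-fold lower in M1-like cells without transfection (log2 fold change -4.26 ± 0.18, adjusted p = 7.25e-20, edgeR) and 13.9-fold lower in the mock condition (-3.80 ± 0.17, adjusted p = 8.66e-19, edgeR). M2-like cells were not higher than M0 cells by the test without transfection (0.26 ± 0.15, adjusted p = 0.217, edgeR), where the M0 libraries had 238, 281 and 268 CPM. This difference passed with the replicate block (0.26, adjusted p = 0.0453) and without a filter on low counts (0.26, adjusted p = 0.0389, edgeR). M2-like cells were 1.45-fold higher than M0 in the mock condition (0.53 ± 0.15, adjusted p = 0.0339, edgeR), with overlapping libraries, since mock M0 had 155, 181 and 253 CPM. That call was lost without mock M0 replicate 1 (0.39) or 2 (0.48) and without mock M2-like replicate 2 (0.38).

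The receptors kept their direction in this experiment. *Tgfbr1* was at 67.0, 81.5 and 67.4 CPM in untransfected M1-like against 182, 170 and 174 CPM in M2-like cells, and at 80.9, 87.3 and 79.2 CPM against 180, 172 and 150 CPM in the mock condition. Its log2 fold change was -1.28 ± 0.10 (adjusted p = 5.13e-13, edgeR) and -1.02 ± 0.10 (adjusted p = 1.06e-10, edgeR), respectively. For *Tgfbr2* the levels were 165, 154 and 164 CPM against 278, 263 and 272 CPM without transfection, and 172, 153 and 163 CPM against 289, 264 and 297 CPM in the mock condition. The M1-like libraries lay below all M2-like libraries in each case, and the log2 fold change of *Tgfbr2* was -0.75 ± 0.06 (adjusted p = 4.25e-12, edgeR) and -0.80 ± 0.06 (adjusted p = 1.14e-12, edgeR).

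All 3 ligands were lower in M1-like cells here. *Tgfb1* was at 152, 169 and 207 CPM in untransfected M1-like against 302, 301 and 362 CPM in M2-like cells, which is 1.83-fold lower (-0.87 ± 0.09, adjusted p = 1.23e-09, edgeR), and 1.66-fold lower in the mock condition (-0.73 ± 0.09, adjusted p = 4.92e-08, edgeR). *Tgfb2* was at 1.95, 3.41 and 1.20 CPM against 13.5, 11.3 and 11.6 CPM, which is 5.56-fold lower (-2.48 ± 0.24, adjusted p = 1.42e-10, edgeR). In the mock condition it was at 2.12, 2.55 and 1.39 CPM against 10.8, 8.27 and 8.16 CPM, 4.43-fold lower (-2.15 ± 0.24, adjusted p = 3.46e-09, edgeR). *Tgfb3* was at 1.16, 0.402 and 0.946 CPM against 3.51, 5.80 and 3.04 CPM without transfection, and at 0.218, 0.246 and 0.755 CPM against 2.63, 6.38 and 5.72 CPM in the mock condition. For this gene the log2 fold change was -2.28 ± 0.43 (adjusted p = 2.83e-05, edgeR) and -3.60 ± 0.47 (adjusted p = 6.19e-08, edgeR), on 4 to 145 reads per library.

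Several of the 9 genes moved together with markers of fibroblasts, cells that make TGF-beta ligands and collagen. Over the 36 libraries, log2 CPM of *Tgfb3* and of the summed fibroblast markers had a correlation of 0.934, a description of libraries that share their conditions, and within the 24 M2-like libraries it was 0.714. After subtraction of the condition means it was 0.790, so libraries of the same condition with more fibroblast marker RNA also held more *Tgfb3*. Mesothelial markers, at 0.344 to 1.45 CPM in M1-like and 6.51 to 38.5 CPM in the other conditions, gave 0.949 over the 36 libraries. For *Tgfb2* and *Tgfbr1* the correlations of deviations from the condition means with the fibroblast markers were -0.551 and -0.571, for *Tgfbi* 0.361 and for *Igf1* 0.428. Over the 36 libraries *Igf1* had a correlation of 0.875 with the fibroblast and 0.931 with the mesothelial markers. *Tgfbi* had one of 0.708 with the fibroblast markers. Within the 24 M2-like libraries the values with the fibroblast markers were 0.334 for *Igf1* and 0.772 for *Tgfbi*. For *Tgfbr2* and *Tgfb1* they were 0.735 and 0.660 over the 36 libraries, but -0.225 and -0.407 within the 24 M2-like libraries. The part of these cells in the differences of any of the 9 genes was not tested. The defining collagen gene *Col1a1* was at 6.14, 10.8 and 10.9 CPM in mock M1-like and at 46.9, 86.0 and 75.6 CPM in mock M2-like libraries.

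**Figure D2:**
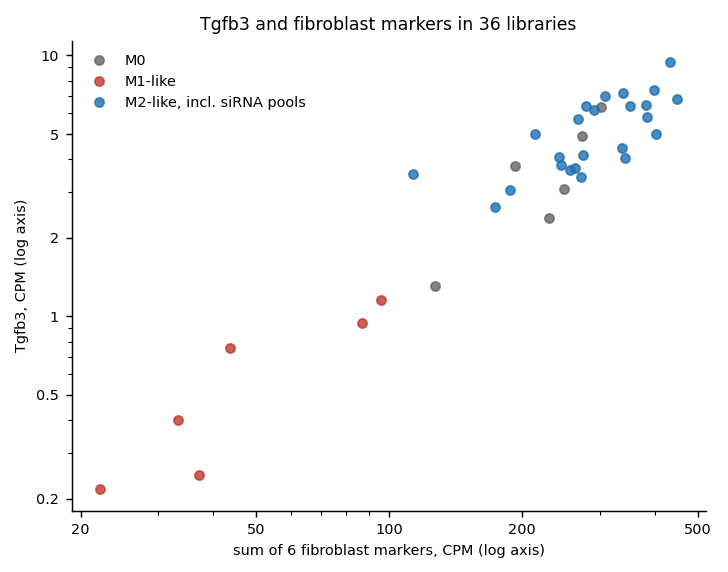
*Tgfb3* (CPM, log axis) against the sum of 6 fibroblast markers (CPM, log axis) in the 36 libraries of the reprogramming experiment, 1 point per library. The 6 M1-like libraries (red) lie lowest on both axes, at marker sums of up to 96.1 CPM, and all other libraries start at 113 CPM.

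*Smad3*, which was higher in M1-like cells at 24 h, did not pass the test in the reprogramming experiment. Without transfection it was at 27.4, 17.3 and 18.7 CPM in M1-like cells against 16.5, 21.3 and 20.1 CPM in M2-like cells (log2 fold change 0.13 ± 0.13, adjusted p = 0.418, edgeR), and in the mock condition at 22.0, 16.7 and 17.6 CPM against 23.1, 23.3 and 19.0 CPM (-0.22 ± 0.13, adjusted p = 0.160, edgeR). In the mock condition it passed without mock M1-like replicate 1 (-0.35, adjusted p = 0.0401). *Smad7* was at 6.53, 5.65 and 4.99 CPM in mock M1-like against 9.73, 9.33 and 9.69 CPM in mock M2-like cells, without overlap (-0.74 ± 0.17, adjusted p = 0.000367, edgeR). In untransfected cells it was at 6.72, 6.49 and 7.44 CPM against 8.16, 8.06 and 8.20 CPM, which also did not overlap but did not pass the test (-0.24 ± 0.17, adjusted p = 0.230, edgeR).

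*Tgfbi*, the matrix protein, was at 6.41, 13.9 and 12.4 CPM in untransfected M1-like cells against 16.3, 31.7 and 22.4 CPM in M2-like cells (-1.12 ± 0.37, adjusted p = 0.0102, edgeR). That call was lost without M1-like replicate 1 (-0.85) or without M2-like replicate 2 (-0.84). In the mock condition it was at 7.07, 15 and 11.2 CPM against 15.6, 24.1 and 18.6 CPM (-0.80 ± 0.37, adjusted p = 0.0631, edgeR), and it passed without mock M1-like replicate 2 (-1.09, adjusted p = 0.0309) and with only the compared conditions in the fit (-0.82, adjusted p = 0.00602, edgeR).

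**Figure D3:**
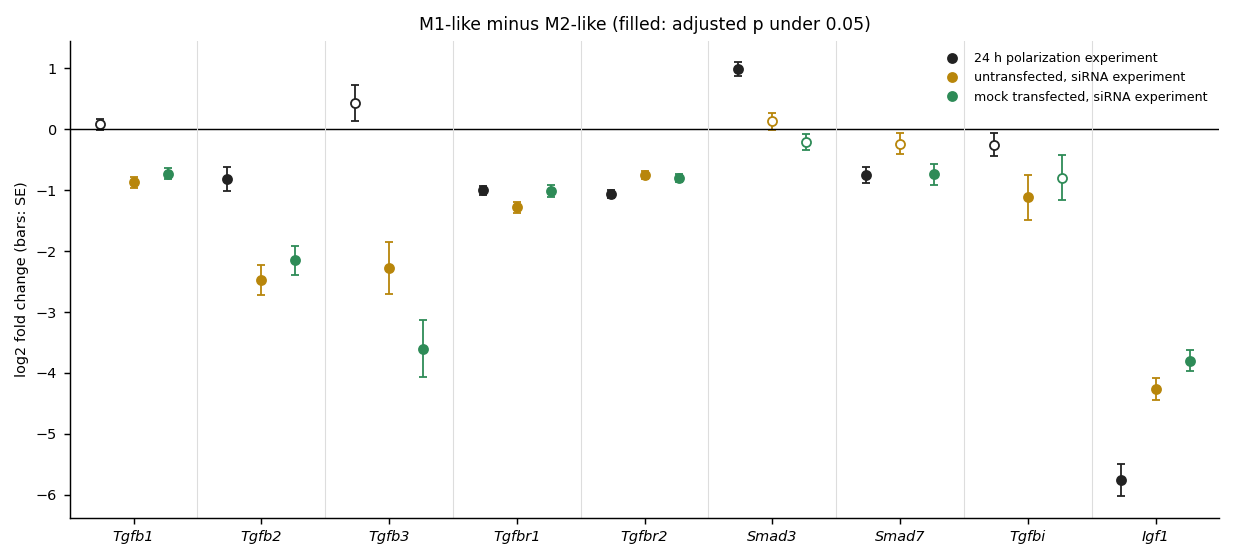
Log2 fold change of each gene, M1-like minus M2-like, in the polarization experiment (black), untransfected cells (ochre) and mock cells (green) of the reprogramming experiment; bars are standard errors and filled points passed the test. *Igf1*, *Tgfb2*, *Tgfbr1* and *Tgfbr2* lie below 0 with filled points in all 3 settings, while *Smad3* is filled only at 24 h.

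Against M0 in the reprogramming experiment, M1-like cells differed in all 9 genes without transfection (57.7% of all genes called) and in all 9 in the mock condition (60.4% called). *Smad3* was higher in M1-like than in M0 cells without transfection (0.59 ± 0.14, adjusted p = 0.000446, edgeR) and lower in the mock condition (-0.54 ± 0.13, adjusted p = 0.000702), and the other 8 genes were lower in both. The call of *Tgfb3* was lost without M0 replicate 1 (-1.11) or M1-like replicate 2 (-1.07) in untransfected cells, and that of *Tgfbi* without mock M0 replicate 3 in mock cells (-0.53, adjusted p = 0.182, edgeR).

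M2-like cells differed from M0 in 6 of the 9 genes without transfection, 3 higher and 3 lower (19.9% of all genes called). In the mock condition 3 differed, 1 higher and 2 lower (3.83% called). The count without transfection was 2 without M0 replicate 2 and 3 without M0 replicate 3 or M2-like replicates 2 or 3. *Tgfb2* was 1.49-fold higher in M2-like cells there (adjusted p = 0.0462, edgeR), a call that was lost without any 1 of the 6 libraries. *Smad3* was 1.38-fold higher (adjusted p = 0.016, edgeR), not without M0 replicates 2 or 3 or M2-like replicate 2. *Tgfbr1* was 1.22-fold lower (adjusted p = 0.0301, edgeR), not without replicates 2 or 3 of M0 or M2-like cells. *Tgfbi* was 2.08-fold lower (adjusted p = 0.0249, edgeR), not without M0 replicate 2 or M2-like replicates 1 or 3. *Smad7* was lower in M2-like than in M0 cells in both, 1.99-fold without transfection (adjusted p = 3.21e-05, edgeR) and 1.63-fold in the mock condition (adjusted p = 0.00756), and M0 libraries ranged from 13.2 to 17.8 and from 11.9 to 21.3 CPM. The call in the mock condition was lost without mock M0 replicate 2 (-0.40). *Tgfbr2* changed its direction: M2-like cells were 1.21-fold higher than M0 without transfection (adjusted p = 0.00200, edgeR) and 1.20-fold lower in the mock condition (adjusted p = 0.0136), the latter not without mock M0 replicate 2 (-0.24) or mock M2-like replicate 2 (-0.21). In the polarization experiment, both *Smad3* (2.02-fold) and *Tgfbr2* (1.42-fold) were lower in M2-like than in M0 cells.

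Between mock and untransfected M0 cells 5 of the 9 genes differed, 3 higher and 2 lower in mock cells, with 20.4% of all genes called. The harvest time of untransfected cells is not given in the sources used here, so the transfection reagent and the time in culture cannot be told apart in these comparisons. *Tgfbr2* was at 236, 223 and 215 CPM in untransfected and at 337, 347 and 333 CPM in mock M0 cells (1.51-fold, adjusted p = 1.37e-08, edgeR), and *Smad3* was at 16.1, 13.2 and 12.8 CPM against 29.4, 27.6 and 24.7 CPM (1.94-fold, adjusted p = 2.72e-06, edgeR). For both genes every mock library was above every untransfected one. *Tgfbr1* was at 194, 219 and 230 CPM in untransfected and at 183, 158 and 154 CPM in mock cells (1.30-fold lower, adjusted p = 0.00412, edgeR). *Tgfb3* was 2.26-fold higher in mock cells (adjusted p = 0.0178, edgeR), beside a fibroblast marker sum of 127 to 249 CPM in untransfected and 193 to 302 CPM in mock cells, and lost its call without M0 replicate 2 (0.89) or mock M0 replicate 2 (0.96). *Igf1* was 1.34-fold lower (adjusted p = 0.0404, edgeR), with overlapping libraries, and lost its call without M0 replicate 2 (-0.36) or 3 (-0.40) and without mock M0 replicate 1 (-0.28) or 2 (-0.36). In mock M0 replicate 3, *Tgfbi* was at 51.1 CPM against 14.1 and 17.8 CPM in the other mock M0 libraries, and without this library *Tgfbi* was called lower in mock cells (-1.61, adjusted p = 0.000460, edgeR).

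In M1-like cells none of the 9 genes was called between mock and untransfected cells, and 0% of all genes were called by edgeR (438 genes at an unadjusted p under 0.05, none of them among the 9, and 0 genes with DESeq2). In M2-like cells none of the 9 genes was called either, with 1.77% of all genes called (0 of the 9 genes at an unadjusted p under 0.05 and 0 with DESeq2). Tested as an interaction, M2-like minus M0 differed between mock and untransfected cells for 2 of the 9 genes, *Tgfbr2* and *Smad3* (5.66% of all genes called), and M1-like minus M0 for 5, *Tgfb3*, *Tgfbr1*, *Tgfbr2*, *Smad3* and *Igf1* (9.07% called), by edgeR.

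The main question of the reprogramming experiment was how siRNA pools change M2-like macrophages. The targeted genes checked the labels: in cells with the matching pool, *E2f1* was at 25.2%, *Myc* at 38.0%, *Pparg* at 21.9% and *Stat6* at 27.3% of its level with the negative pool, and in cells with the combined pools at 60.4%, 39.6%, 28.3% and 53.9%, respectively. Combined pools lowered *Tgfb2*, *Tgfbr1* and *Tgfbr2* and raised *Smad3*, so that 4 of the 9 genes were called, 1 higher and 3 lower, against 26.5% of all genes called, 12.5% higher and 13.9% lower. The *Myc* pool called *Tgfb2*, *Tgfbr1* and *Tgfbr2* lower (29.6% of all genes called). By the study's methods, this pool came from Dharmacon and the *E2f1*, *Pparg* and *Stat6* pools from siTools Biotech. The supplier of the negative pool is not given there. Target and supplier thus cannot be told apart for the *Myc* pool, which is also part of the combined pools. The *Pparg* pool called *Tgfbr1* and *Tgfbr2* lower and *Smad3* higher (5.74% called), and the *E2f1* pool called *Tgfbr2* lower (0.910% called). The *Stat6* pool called none of the 9 genes with edgeR (1.51% of all genes called; 3 of the 9 genes at an unadjusted p under 0.05 and 0 with DESeq2).

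The negative siRNA pool itself lowered *Tgfb2* against mock, and none of the other 8 genes was called there (11.7% of all genes called). Mock M2-like libraries held 10.8, 8.27 and 8.16 CPM of *Tgfb2* and libraries with the negative pool 4.87, 3.67 and 4.12 CPM, without overlap, which is 2.14-fold lower (-1.10 ± 0.22, adjusted p = 0.000848, edgeR). With the combined pools the level was 2.29, 1.79 and 2.25 CPM, below every library with the negative pool and 2.01-fold lower (-1.01 ± 0.26, adjusted p = 0.00377, edgeR). With the *Myc* pool it was 2.66, 1.93 and 2.23 CPM, 1.85-fold lower than with the negative pool (-0.89 ± 0.25, adjusted p = 0.00731, edgeR). The other pools did not pass the test for *Tgfb2*, with means of 3.34 CPM for *Pparg*, 4.36 CPM for *E2f1* and 4.02 CPM for *Stat6* (adjusted p = 0.5, 0.975 and 0.943, edgeR). Against mock, which was the alternative reference, *Tgfb2* was lower with the combined pools by a log2 fold change of -2.11 ± 0.24 (adjusted p = 2.35e-08, edgeR), with 37.1% of all genes called. Each single pool also passed against mock in edgeR. The log2 fold change was -1.99 for *Myc* (adjusted p = 4.33e-08), -1.43 for *Pparg* (2.14e-05), -1.17 for *Stat6* (0.000441) and -1.06 for *E2f1* (0.00134). Mock M1-like libraries, at 1.39 to 2.55 CPM, spanned the range of the combined pools, a comparison that was not tested.

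The 250 bases upstream of the annotated start of *Tgfb2* are shown because *Tgfb2* fell with the *Myc* pool. They lie at chr1:186705990-186706239 on the minus strand of GRCm38 and are from RefSeq. Capitals mark the E-box CACGTG, a sequence bound by MYC with its partner MAX, at position -51 from the start, and matches to CAGAC, a SMAD-binding sequence, in the same window.
Tgfb2: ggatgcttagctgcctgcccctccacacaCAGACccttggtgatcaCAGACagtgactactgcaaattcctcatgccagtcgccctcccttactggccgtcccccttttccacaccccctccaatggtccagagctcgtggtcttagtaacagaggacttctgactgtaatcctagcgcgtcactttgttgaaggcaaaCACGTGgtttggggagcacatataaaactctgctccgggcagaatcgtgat
CACGTG occurs in 6.05% of 27025 promoter windows of 250 bases and CAGAC, searched on both strands, in 42.1%. Of the 7 genes searched, which leaves out *Tgfb3* and *Smad7*, *Tgfb2* was the only gene with the E-box in this window. *Tgfbr1*, which also fell with the *Myc* pool, held neither sequence. The sequence TTC followed after 4 bases by GAA, which STAT6 binds, was in none of these 7 windows and in 5.86% of all windows. A match is a description of letters and not of binding.

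*Tgfbr1*, the type I receptor, fell with the combined and the *Myc* pools and with the *Pparg* pool. Libraries with the negative pool had 157, 151 and 171 CPM, those with the combined pools 91.5, 86.2 and 86.1 CPM and those with the *Myc* pool 98.9, 75.7 and 73.9 CPM, so that both pools lay below every library of the negative pool. The level was 1.82-fold lower with the combined pools (-0.86 ± 0.10, adjusted p = 5.82e-08, edgeR) and 1.93-fold lower with the *Myc* pool (-0.95 ± 0.10, adjusted p = 8.68e-09, edgeR). Mock M1-like libraries held 79.2 to 87.3 CPM, within the same range, without a test. The *Pparg* pool gave 137, 120 and 117 CPM (-0.36 ± 0.10, adjusted p = 0.0211, edgeR), a call that was lost without *Pparg* replicate 2 (-0.33) or 3 (-0.31) and without replicate 1 (-0.37) or 3 (-0.31) of the negative pool. *E2f1* and *Stat6* pools gave 141, 122 and 129 CPM and 138, 140 and 131 CPM. Their libraries also lay below those of the negative pool, but the differences of -0.29 ± 0.10 and -0.23 ± 0.10 did not pass the test (adjusted p = 0.184 and 0.284, edgeR). Both passed against mock (-0.35, adjusted p = 0.0125, and -0.30, adjusted p = 0.0398, edgeR). The *E2f1* difference from the negative pool also passed with only the compared conditions in the fit (adjusted p = 0.0427, edgeR).

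*Tgfbr2*, the type II receptor, passed the test as lower with the combined, *Pparg*, *E2f1* and *Myc* pools. It was at 315, 302 and 302 CPM with the negative pool and at 244, 224 and 227 CPM with the combined pools, 1.32-fold lower (-0.40 ± 0.06, adjusted p = 1.09e-05, edgeR). The *Pparg* pool gave 249, 224 and 242 CPM (-0.36 ± 0.06, adjusted p = 0.000265, edgeR), the *E2f1* pool 263, 239 and 248 CPM (-0.29 ± 0.06, adjusted p = 0.0118) and the *Myc* pool 270, 272 and 261 CPM (-0.19 ± 0.06, adjusted p = 0.0178). Libraries with the *Stat6* pool, at 294, 260 and 261 CPM, were also below every library with the negative pool, but the difference did not pass the test (-0.17 ± 0.06, adjusted p = 0.185, edgeR). All of these libraries lay below those with the negative pool and above the mock M1-like libraries at 153 to 172 CPM. The *E2f1* call was lost without *E2f1* replicate 2 (-0.26) or 3 (-0.29) or without replicate 1 of the negative pool (-0.27), and the *Myc* call without *Myc* replicate 3 (-0.18) or replicate 1 of the negative pool (-0.17). Against mock instead of the negative pool, the *E2f1* (-0.18, adjusted p = 0.0551) and *Myc* (-0.08, adjusted p = 0.325) differences did not pass the test, nor did they without a filter on low counts (adjusted p = 0.0620 and 0.133, edgeR).

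*Smad3* rose with the combined pools, from 21.6, 24.2 and 20.3 CPM to 33.1, 28.8 and 29.7 CPM (1.39-fold, 0.47 ± 0.13, adjusted p = 0.00632, edgeR). With the *Pparg* pool it was at 29.6, 32.2 and 30.8 CPM (1.40-fold, 0.49 ± 0.13, adjusted p = 0.0186, edgeR), a call that was lost without *Pparg* replicate 2 (0.46) or 3 (0.49) and without replicate 1 (0.48) or 3 (0.43) of the negative pool. The *Myc* and *Stat6* pools gave 27.2, 26.3 and 27.8 CPM and 28.0, 25.9 and 28.3 CPM, above the negative pool in every library but without passing the test (0.30 ± 0.13, adjusted p = 0.0762, and 0.32 ± 0.13, adjusted p = 0.279, edgeR). The *Myc* difference passed without a filter on low counts (0.31, adjusted p = 0.0337) and with only the compared conditions in the fit (0.31, adjusted p = 0.0124, edgeR). Mock M1-like libraries held 16.7 to 22.0 CPM of *Smad3*, below every library with the combined pools and overlapping those with the negative pool, without a test.

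**Figure D4:**
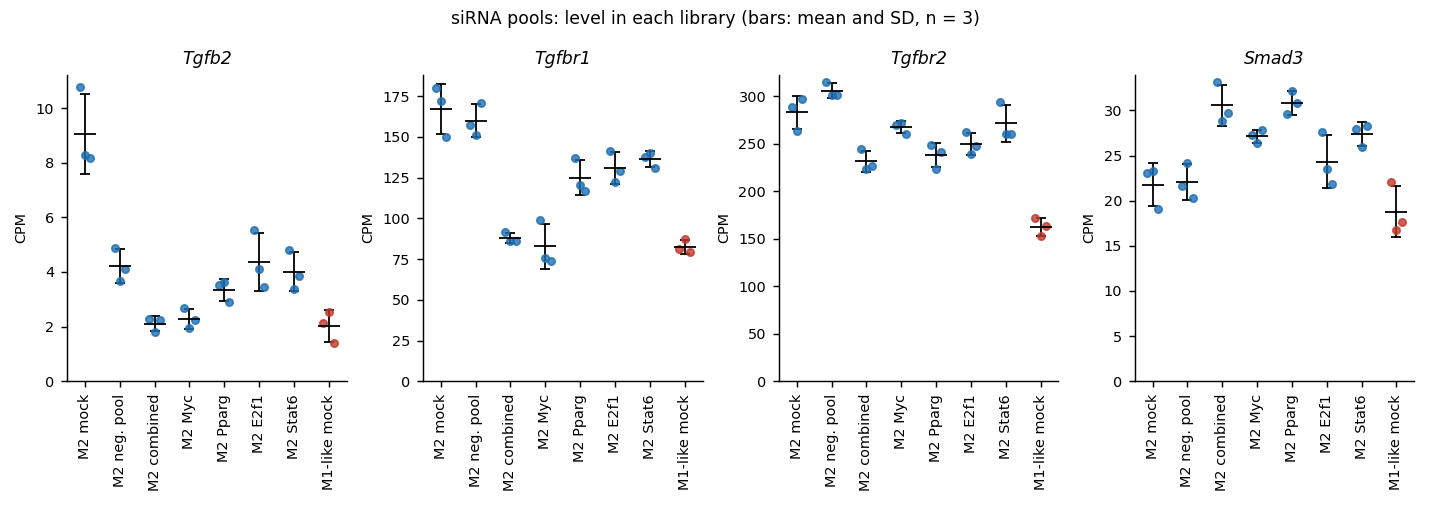
*Tgfb2*, *Tgfbr1*, *Tgfbr2* and *Smad3* (CPM, axis from 0) in each library of M2-like cells with mock transfection, the negative pool and the siRNA pools (blue), and in mock M1-like cells (red); bars are mean and SD of 3 replicates. *Tgfb2* drops from mock (8.16 to 10.8 CPM) to the negative pool (3.67 to 4.87 CPM) and again to the combined and *Myc* pools, while *Tgfbr1* drops only with the targeting pools.

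The other genes did not pass the test with any pool against the negative pool. Under other settings, *Tgfb3* with the *Myc* pool passed without a filter on low counts (-0.59, adjusted p = 0.03, edgeR). It also passed with only the compared conditions in the fit (-0.60, adjusted p = 0.0325, edgeR). *Tgfbi* with the *E2f1* pool passed without a filter (-0.52, adjusted p = 0.0146, edgeR). *Igf1*, which separated M1-like from M2-like cells most widely, was at 249, 307 and 323 CPM with the negative pool, 213, 286 and 257 CPM with the combined pools and 314, 370 and 332 CPM with the *Pparg* pool. The log2 fold change of *Igf1* with the combined pools was -0.22 ± 0.15 (adjusted p = 0.289, edgeR), beside -3.80 between mock M1-like and M2-like cells. *Tgfb1* with the combined pools was at 260, 251 and 249 CPM against 255, 254 and 228 CPM (0.05 ± 0.09, adjusted p = 0.757, edgeR). *Tgfbi* ranged from 20.1 to 49.1 CPM over the negative and targeting pools, and its difference of the negative pool against mock (0.94 ± 0.35, adjusted p = 0.0747, edgeR) did not pass the test, though it did with only the compared conditions in the fit (0.93, adjusted p = 0.00961) or without a filter on low counts (0.93, adjusted p = 1.24e-09, edgeR). *Smad7* was between 8.89 and 13.6 CPM in these libraries, and its log2 fold change with the combined pools was 0.01 ± 0.16 (adjusted p = 0.973, edgeR). *Tgfb3* was at 3.81, 3.42 and 4.99 CPM with the combined pools against 4.15, 7.40 and 6.46 CPM (-0.56 ± 0.32, adjusted p = 0.211, edgeR), with fibroblast marker sums of 245 to 402 and 275 to 398 CPM.

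**Figure D5:**
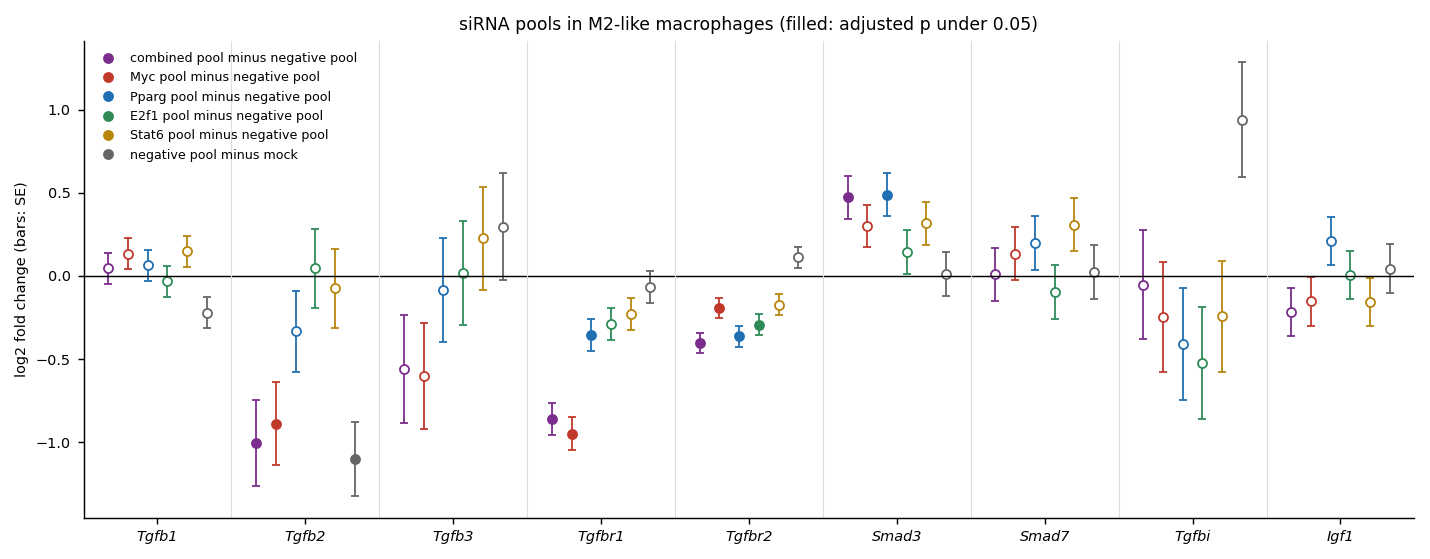
Log2 fold change of each gene for the siRNA pools against the negative pool, and for the negative pool against mock (grey); bars are standard errors and filled points passed the test. *Tgfb2* is filled for the combined and *Myc* pools and for the negative pool against mock, *Tgfbr2* for all pools but *Stat6*, and *Tgfb1*, *Tgfb3*, *Smad7*, *Tgfbi* and *Igf1* for none.

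The combined pools were also compared with each single pool. None of the 9 genes differed from the *Myc* pool in edgeR (0.0494% of all genes called, which is 7 genes; 1 of the 9 genes, *Tgfbr2*, at an unadjusted p under 0.05, and 0 with DESeq2). *Tgfbr2* was 1.16-fold lower with the combined pools there, without overlap of the libraries (-0.21 ± 0.06, adjusted p = 1, edgeR). *Tgfbr1* was lower with the combined pools than with *E2f1* (1.49-fold, adjusted p = 4.83e-05; 21.6% of all genes called), *Pparg* (1.42-fold, adjusted p = 0.000359; 18% called) and *Stat6* (1.55-fold, adjusted p = 1.39e-05, edgeR; 22.2% called). *Tgfb2* was lower than with *E2f1* (2.07-fold, adjusted p = 0.00305, edgeR) and *Stat6* (1.91-fold, adjusted p = 0.00909), the latter not without combined replicate 2 (-0.82) or *Stat6* replicate 1 (-0.78). *Tgfbr2* was also lower than with *Stat6* (1.17-fold, adjusted p = 0.00715, edgeR), not without *Stat6* replicate 1 (-0.17). *Igf1* was 1.34-fold lower with the combined pools than with the *Pparg* pool (adjusted p = 0.0400, edgeR), a call that was lost without combined replicate 1 (-0.32) or 3 (-0.44) and without *Pparg* replicate 2 (-0.36) or 3 (-0.44).

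The wider pathway was described with 6 gene lists, each by its counts and its median beside that of all genes tested. At 24 h, M1-like minus M2-like, 3 of 5 tested ligands of the family were higher and 1 lower (median log2 fold change 0.96, all genes -0.06), beside 34.6% of all genes called higher and 38.1% called lower. *Inhba*, the subunit of activin A, was at 150 ± 25.6 CPM (SD, n = 3) in M1-like cells against 0.388 ± 0.0932 CPM in M2-like cells (log2 fold change 8.56 ± 0.17, adjusted p = 1.12e-12, edgeR), and *Gdf3* was lower (-4.23 ± 0.22, adjusted p = 4.94e-09). Of 14 tested genes for latency and activation, 6 were higher and 5 lower (median 0.15). *Thbs1*, a matrix protein that can activate latent TGF-beta, was at 756 ± 302 against 14.8 ± 2.42 CPM (5.68 ± 0.29, adjusted p = 4.25e-09, edgeR), and *Mmp14*, a membrane protease, was higher by 4.06 ± 0.08 (adjusted p = 8.26e-13), whereas the integrin subunit *Itgb5* was lower by a log2 fold change of -3.77 ± 0.10 (adjusted p = 6.81e-12).

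Of 10 tested other receptors and co-receptors, 6 were higher and 2 lower in M1-like cells (median 0.35). The co-receptor *Eng* was at 99.4 ± 12.6 against 21.3 ± 4.24 CPM and the type I receptor *Acvrl1* at 73.2 ± 14.3 against 17.9 ± 2.10 CPM. *Bambi* was lower, at 2.16 ± 0.265 against 5.81 ± 0.483 CPM (-1.42 ± 0.12, adjusted p = 4.8e-07, edgeR). Of 18 tested other SMADs and regulators, 10 were higher and 3 lower (median 0.26), with the inhibitory *Smad6* at 13.6 ± 1.86 against 2.28 ± 0.683 CPM (2.56 ± 0.18, adjusted p = 9.51e-08, edgeR), opposite to *Smad7*. Of 20 tested target genes, 8 were higher and 6 lower (median -0.09). Fibronectin, *Fn1*, was at 110 ± 31.6 against 2520 ± 53.3 CPM (-4.52 ± 0.17, adjusted p = 2.06e-10, edgeR). Of 10 tested genes of the IGF axis, 3 were higher and 6 lower (median -0.65).

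In mock cells, M1-like minus M2-like, 1 of 7 tested ligands was higher and 6 lower (median -2.28, all genes 0.03), beside 30.9% of all genes called higher and 29.8% called lower, with *Inhba* again higher (88.7 ± 26.8 against 1.07 ± 0.320 CPM). *Bmp2*, which was higher in M1-like cells at 24 h (2.17 ± 0.20, adjusted p = 7.93e-07, edgeR), was lower in mock M1-like cells (-2.51 ± 0.18, adjusted p = 1.44e-13), at 1.98 ± 0.0799 against 11.3 ± 0.412 CPM. For latency and activation 4 of 15 genes were higher and 8 lower (median -1.19). *Lrrc32*, which holds latent TGF-beta at the cell surface, was at 1.70 ± 0.378 against 18.6 ± 3.83 CPM, and *Ltbp2* at 2.41 ± 0.351 against 20.5 ± 4.18 CPM. *Thbs1* was again higher, at 706 ± 183 against 65.3 ± 23.3 CPM (3.44 ± 0.37, adjusted p = 1.49e-09, edgeR). Of the target genes 5 of 20 were higher and 12 lower (median -1.01), of other receptors 2 of 10 were higher and 1 lower (median -0.10), of other SMADs and regulators 4 of 18 were higher and 4 lower (median -0.04), and of the IGF axis 0 of 12 were higher and 8 lower (median -1.73). These counts stand beside the lower fibroblast marker sum of mock M1-like cells (22.2 to 43.7 CPM against 174 to 280 CPM in mock M2-like cells), whose part was not tested.

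With the combined pools against the negative pool, 2 of 7 ligands were higher and 1 lower (median 0.23, all genes 0.01), beside 12.5% of all genes called higher and 13.9% called lower. *Inhba* rose from 2.79 ± 0.391 to 12.7 ± 1.26 CPM (log2 fold change 2.18 ± 0.23, adjusted p = 2.62e-08, edgeR), and *Gdf3* fell by 0.61 on the log2 scale (adjusted p = 0.0153). For latency and activation, 4 of 15 genes were higher and 3 lower (median -0.002), with *Mmp14* at 259 ± 39.6 against 64.8 ± 11.4 CPM (2.0 ± 0.21, adjusted p = 1.17e-08, edgeR) and the latent TGF-beta binding protein *Ltbp3* at 86.7 ± 15.7 against 178 ± 17.5 CPM (-1.03 ± 0.14, adjusted p = 1.07e-06). Other receptors were higher in 0 and lower in 5 of 10 genes (median -0.41), among them *Acvr1* (-0.68 ± 0.10) and *Eng* (-0.55 ± 0.12). Of other SMADs and regulators, 2 of 18 were higher and 1 lower (median 0.03), of the target genes 4 of 20 were higher and 4 lower (median -0.21), and of the IGF axis 0 of 12 were higher and 4 lower (median -0.65). The last group included *Grb10*, an adaptor that inhibits signaling of the insulin and IGF1 receptors, at 6.83 ± 2.19 against 17.2 ± 3.31 CPM (-1.32 ± 0.28, adjusted p = 0.000555, edgeR), and the insulin receptor *Insr* (-0.66 ± 0.12, adjusted p = 8.36e-05).

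*Inhba*, *Mmp14* and *Ltbp3* had similar values with the *Myc* pool alone, which shares the negative pool as reference (log2 fold changes 2.14 ± 0.23, 1.97 ± 0.21 and -0.95 ± 0.14). Against mock, the negative pool also raised *Inhba* (1.38 ± 0.36, adjusted p = 0.00908, edgeR) and *Mmp14* (0.71 ± 0.21, adjusted p = 0.0236).

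Genes with the most similar pattern were found over the 12 condition means of the reprogramming experiment, with the correlation over the 9 samples of the polarization experiment beside it, both as descriptions over points that share conditions. For *Igf1* these were *Egr2* (0.994 and 0.956), *Dnmt3aos* (0.991 and 0.986) and *Mmp12* (0.989 and 0.987). For *Tgfbr1* they were *Pcna* (0.983 and 0.395), *Pofut1* (0.981 and 0.957) and *Adam10* (0.979 and 0.895). For *Tgfb2* they were *Mvb12b* (0.986 and 0.779), *Tln1* (0.981 and 0.297) and *Aamp* (0.980 and 0.256). For *Tgfb3* they were the collagen genes *Col6a2* (0.992 and -0.038) and *Col6a1* (0.991 and 0.023) and the collagen chaperone *Serpinh1* (0.991 and 0.206), whose correlations were near 0 or low in the polarization experiment. Among the 9 genes, the highest correlations over the 12 condition means were 0.915 for *Tgfb2* with *Tgfbr1* and for *Tgfb3* with *Igf1*, and the lowest was -0.388 for *Tgfb2* with *Smad3*.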

How the data were processed

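RNA sequencing of 18 libraries of the polarization and 36 of the reprogramming experiment was used. The authors trimmed reads with Trimmomatic, mapped them to GRCm38/mm10 with TopHat, counted them per gene with featureCounts and deposited raw read counts; versions, annotation and strand setting are not given in the sources used here. GENCODE M21 gave the symbols, exon lengths and GRCm38 coordinates.

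Groups came from the labels. Technical replicates were summed. Genes were filtered with filterByExpr (minimum count 10, minimum total 15), normalized with TMM and tested two-sided by the quasi-likelihood method of edgeR, in 1 model per experiment; the standard error is the size of the log2 fold change divided by the square root of F. Log2 CPM for correlations between genes used a prior count of 2, and those with marker sums log2(CPM + 1). Depth is given in the report; of the 9 genes, *Tgfb3* had the fewest reads. Same-numbered samples of the polarization experiment come from the same mouse (median correlation of deviations from the condition means 0.329 over 9 pairs, -0.172 between mice). The code was tested on simulated counts, with changes of at least 2-fold placed in genes above a set mean level. There, edgeR recovered 200 of 200 changed genes for M1-like against M0 at 24 h among 15847 genes. For untransfected M1-like against M0 it recovered 198 of 200 among 13868 genes. In each case 12 unchanged genes were also called. Smaller fold changes and genes as low as *Tgfb3* were not part of this check, so it gives no power for them.

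All 9 genes are named, and of each wider list at most 3 genes with the largest absolute log2 fold change among those called with non-overlapping replicates; for each of the 9 genes the 3 genes with the highest correlation were taken among genes with a symbol whose mean log2 CPM reached 2; those of 4 genes are given. The genes and lists were chosen with earlier results of these data known. As alternatives, the tests were repeated with RLE size factors, with DESeq2, without a filter, with a replicate block, with only the compared conditions, with mock as reference and without each replicate. Tests ran in R 4.3.3 (edgeR 4.0.16, DESeq2 1.42.0) and all else in Python 3.11.15 (pandas 2.3.3, matplotlib 3.10.9, SciPy 1.17.1, NumPy 2.4.6).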

Additional observations from a re-analysis of the deposited data

Results flagged for a closer look

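The difference between conditions was not the same in mock and untransfected macrophages for 5 genes, tested as an interaction in edgeR (mock minus untransfected, on the log2 scale). For M2-like minus M0 this was *Tgfbr2* (-0.53 ± 0.09, adjusted p = 0.000267) and *Smad3* (-0.79 ± 0.19, adjusted p = 0.0102), with 5.66% of all genes called. *Tgfbr2* was 0.27 in untransfected and -0.26 in mock cells, and *Smad3* 0.47 and -0.32.

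For M1-like minus M0 it was *Tgfb3* (-2.26 ± 0.71, adjusted p = 0.0387), *Tgfbr1* (0.57 ± 0.14, adjusted p = 0.00524), *Tgfbr2* (-0.58 ± 0.09, adjusted p = 3.23e-05), *Smad3* (-1.13 ± 0.19, adjusted p = 0.000102) and *Igf1* (0.74 ± 0.23, adjusted p = 0.0353), with 9.07% of all genes called (edgeR). Both comparisons share the M0 libraries, in which these 5 genes differed between mock and untransfected cells, while none of the 9 genes was called in M1-like or M2-like cells, and reagent and time in culture cannot be told apart. The difference of *Tgfb3* rests on single libraries: its adjusted p was 0.0899 without M0 replicate 2, 0.0575 without M0 replicate 3, 0.0848 without mock M0 replicate 2, 0.146 and 0.0932 without M1-like replicates 1 and 3, and 0.103 and 0.110 without mock M1-like replicates 1 and 2. For *Igf1* it was 0.0837 and 0.0682 without M0 replicates 2 and 3, 0.101 and 0.0824 without mock M0 replicates 1 and 2, 0.0625 and 0.0773 without M1-like replicates 1 and 3, and 0.0617 and 0.0911 without mock M1-like replicates 2 and 3. Without mock M0 replicate 3, *Tgfbi* passed as well (1.65, adjusted p = 0.0156, edgeR).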

How the results depend on the processing

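The log2 fold changes of the 9 genes in 25 comparisons kept their side of the threshold in 223 of 225 cases with DESeq2, 225 with RLE size factors, 205 without a filter, 210 with only the compared conditions, 217 with the replicate block and 1433 of 1512 after leaving out 1 replicate, and no called difference changed its sign under these. With mock in place of the negative pool, 37 of 45 kept their side of the threshold. Of those that passed only against mock, 2 had the opposite sign against the negative pool. *Tgfbi* with the combined pools was 0.89 (adjusted p = 0.0424, edgeR) instead of -0.05, and *Tgfb2* with the *E2f1* pool was -1.06 (adjusted p = 0.00134, edgeR) instead of 0.05. Differences that passed with neither reference could change sign too, such as *Tgfb1* with the combined pools (-0.18 instead of 0.05).

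The number of the 9 genes called moved by over 1.5 times as follows. With only the compared conditions it was 0 instead of 3 for mock M2-like minus M0, 2 instead of 1 for the negative pool minus mock, 2 instead of 1 for *E2f1*, 5 instead of 3 for *Myc*, 4 instead of 2 for the combined pools minus *E2f1* and 3 instead of 5 for the interaction of M1-like minus M0. Without a filter it was 2 instead of 1 for the negative pool minus mock and 5 instead of 2 for the combined pools minus *E2f1*. With mock as reference it was 2 instead of 1 for *E2f1* and 2 instead of 0 for *Stat6*. The cause was not tested. Leaving out 1 replicate gave 2 to 5 (6 with all) for untransfected M2-like minus M0, 0 to 3 (3) for mock M2-like minus M0, 3 to 6 (5) for mock minus untransfected M0, 0 to 1 (1) for *E2f1*, 1 to 3 (3) for *Pparg*, 1 to 2 (2) for the combined pools minus *Pparg* and 3 to 6 (5) for the interaction of M1-like minus M0.

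The replicate block changed no call of the polarization experiment. In the reprogramming experiment, where 133 of 198 same-numbered pairs had a correlation of deviations over 0.1 and 34 of 36 samples were closest to their own number, samples share only a number; the block added 8 calls, among them *Tgfbi* for the negative pool minus mock (0.93, adjusted p = 0.0104) and *Smad3* for *Myc* (0.30, adjusted p = 0.0428, edgeR), and gave 2 instead of 1 for the negative pool minus mock. Depth limits *Tgfb3* (8 to 36 and 4 to 145 reads per sample) and *Tgfb2* (19 to 189 reads in the reprogramming experiment). Over all genes, the number called moved most for *E2f1* (129; 219 with DESeq2, 237 without a filter, 236 with the block, 342 with only the compared conditions, 1648 against mock) and *Stat6* (214; 363 with DESeq2, 380 with the block, 1624 against mock). It also moved for *Pparg* (814; 2441 against mock), mock M2-like minus M0 (543; 900 with the block, 111 with only the compared conditions), the combined pools minus *Myc* (7; 28 without a filter), mock minus untransfected M1-like (0; 42 without a filter) and M2-like cells (251; 387 without a filter), and the interactions of M1-like minus M2-like (160; 306 without a filter), M2-like minus M0 (802; 495 with only the compared conditions) and M1-like minus M0 (1286; 735 likewise).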
